A study of Caenorhabditis elegans with 2 samples.

Results

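The cuticle collagen genes of Caenorhabditis elegans were examined for binding of a tagged transcription factor in L2 larvae. The set held 170 genes, namely the 156 protein-coding genes named col- with a number and 14 collagen genes named after the body shape of their mutants (dpy-2, dpy-3, dpy-5, dpy-7, dpy-8, dpy-10, dpy-13, dpy-17, rol-6, sqt-1, sqt-3, bli-1, bli-2 and lon-3), out of 19973 protein-coding genes on the nuclear chromosomes. Membership followed from gene name alone and used no measured value. Chromatin immunoprecipitation with sequencing (ChIP-seq) was done on sonicated whole L2 larvae, males and females together, of strain OP178. All animals carried the unc-119(ed3) III allele and the integrated transgene wgIs178, from which SKN-1 is made with GFP and FLAG at its C terminus. There was 1 group of 2 biological replicates, with no untagged or untreated group among the samples. The antibody and strain labels name SKN-1, whereas a free-text line of both samples names the forkhead factor PHA-4. The chromatin came from whole larvae, so a peak does not show in which tissue a site was bound.

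The worm cuticle is an extracellular layer secreted by the epidermis (hypodermis) and replaced at every moult. It consists mainly of small collagens, each encoded by its own short gene and expressed in waves during the moulting cycle. SKN-1 is the worm counterpart of the mammalian Nrf factors and activates detoxification and stress genes. It is linked to the cuticle in both directions. Loss of collagens that form the annular furrows, the circumferential grooves of the cuticle, switches on detoxification genes that SKN-1 controls, and SKN-1 is needed for raised expression of some collagen genes when insulin signalling is low.

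The deposited data are peak lists in build ce11. A strong list, called optimal, held 870 peaks on the nuclear chromosomes that passed the authors' reproducibility procedure. Weak lists, deposited as peaks together with background for that procedure, held 13302 peaks for both replicates pooled, 24771 for replicate 1 and 28630 for replicate 2. The optimal peaks were the strongest peaks of the pooled list without exception. Every peak carries the authors' signal, whose scale differs between lists, and a q value, which reached 0.960 in each weak list. Read depth is unknown from these lists, and the signal has no replicate error. A promoter was the window from 1000 bp before to 200 bp after any annotated start of a gene, and a gene was counted when a peak summit lay in it. With 1 group no test between conditions exists, and no test of the gene set was made. Shares of collagen genes are given beside the same share over all genes.

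No cuticle collagen gene had a strong peak in its promoter. In the optimal list 0 of 170 collagen genes had a promoter summit, against 3.89% of all genes. A count of 0 among 170 allows a share of up to 1.76%, when 3 counts are taken as the upper limit for 0. That limit covers the counting of genes only and treats them as independent, although some neighbouring collagen genes share promoter bases. With as many of the strongest peaks of replicate 1 as the optimal list holds, the count was also 0 of 170, against 3.80% of all genes. With the same number from replicate 2 it was 1 of 170, against 3.62% of all genes, and the gene was col-38. Its summit there lay in the promoter of rpl-5 too, which encodes a protein of the large ribosomal subunit.

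The weak lists did hold peaks at collagen genes, but at smaller shares than for genes at large. In the pooled list 26 collagen genes (15.3%) had a promoter summit, against 29.2% of all genes. In replicate 1 there were 39 (22.9%, against 41.0% of all genes) and in replicate 2 there were 58 (34.1%, against 43.5% of all genes). The collagen share was thus 0.524, 0.560 and 0.785 times that of all genes in the pooled list, replicate 1 and replicate 2. The gap was wider among better supported peaks. With peaks of q under 0.05 only, 2 collagen genes remained in the pooled list against 7.70% of all genes, 6 in replicate 1 against 9.14%, and 5 in replicate 2 against 10.5%. The ratios were 0.153, 0.386 and 0.280 in the same order.

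**Figure D1:**
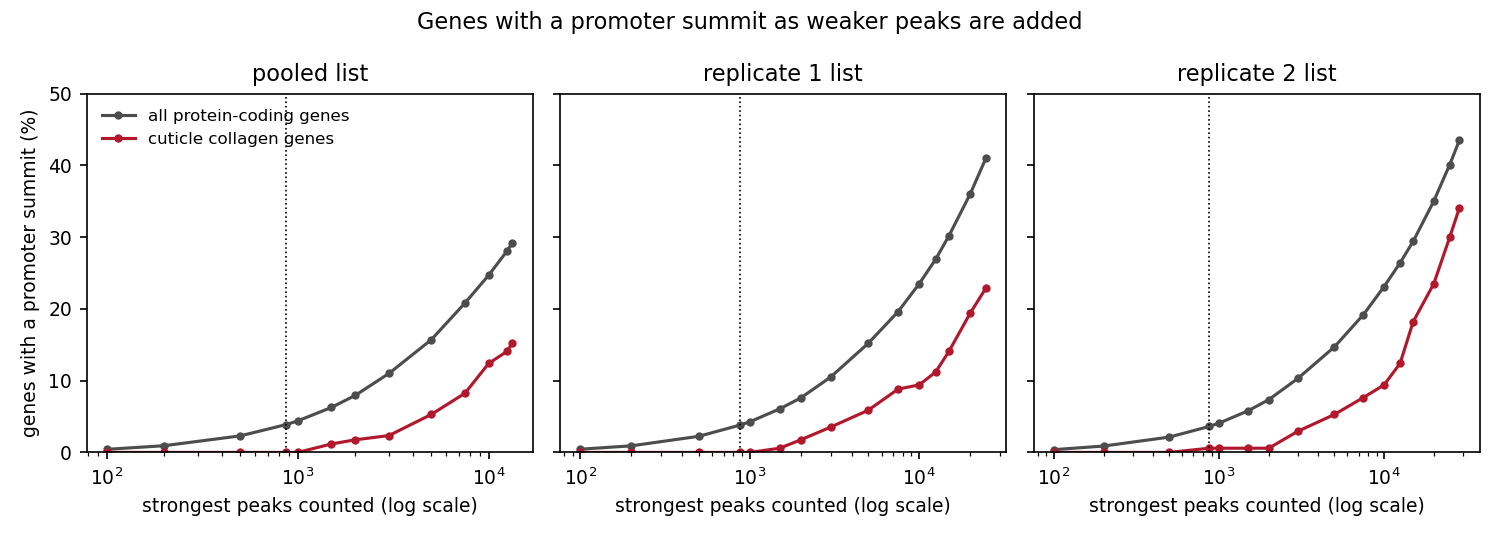
Share of genes with a promoter summit (percent) against the number of strongest peaks counted (log scale) in the pooled list and in each replicate's list, for the 170 cuticle collagen genes (red) and all 19973 protein-coding genes (grey). The dotted line marks the size of the optimal list; the collagen share is 0 there in the pooled list and replicate 1, and it ends at 15.3%, 22.9% and 34.1% against 29.2%, 41.0% and 43.5%.

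Most collagen genes had no promoter peak in several lists at a time. Of the 170 genes, 95 (55.9%) had no promoter summit in any of the weak lists, against 42.5% of all genes. Only 16 (9.41%) had a summit in the pooled list and in both replicates, against 22.4% of all genes. The lists are not independent, since the pooled list was made from both libraries. Summits of the 2 replicates lay within 100 bp of each other in 13 collagen promoters (7.65%), against 16.5% of all genes. Those 13 are 33.3% of the collagen genes with a summit in replicate 1 and 22.4% of those with one in replicate 2, where the shares over all genes were 40.2% and 37.9%.

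The strongest pooled summit at a collagen gene was that of col-38 on chromosome II, at rank 1223 with a signal of 38.0 (q = 0.0119), below the lowest signal in the optimal list, 43.2. It was present in replicate 1 (rank 1651, signal 24.5, q = 0.0154) and in replicate 2 (rank 517, signal 18.1, q = 0.0100). The next was that of col-71, with a pooled signal of 35.7 (rank 1448, q = 0.0183), a signal of 24.3 in replicate 1 and of 10.3 in replicate 2. These 2 genes were the only collagen genes with q under 0.05 in all 3 weak lists (1.18%, against 5.06% of all genes), and both share the peak with a neighbour. The pooled summit of col-38 lay 445 bp upstream of its own start and 394 bp from that of rpl-5. That of col-71 lay 253 bp upstream of its start and 145 bp from that of Y49F6B.2. From the peak alone the gene of such a pair cannot be told.

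The pooled summit of col-93 ranked 1969 (signal 31.7, q = 0.0531) and lay 541 bp upstream of the gene, in no other promoter. In replicate 2 a summit lay 508 bp upstream (signal 10.1, q = 0.0383). The only replicate 1 summit lay 701 bp upstream (signal 19.5, q = 0.0917), nearest to another, weaker summit of replicate 2 (signal 4.08, q = 0.844), so that the strongest summits of the replicates mark different places. For col-159, which has 3 annotated starts, the pooled signal was 27.0 (q = 0.167), with 22.0 in replicate 1 (q = 0.0378). These summits lay 879 and 900 bp upstream of an inner start, inside the annotated gene and downstream of its outermost start. Replicate 2 had no summit there. Its only one in the promoter windows lay 77 bp downstream of another start (signal 5.16, q = 0.629) and in the promoter of col-160 too. For col-63 the pooled signal was 25.5 (q = 0.235), 559 bp upstream, with 26.9 in replicate 1 (q = 0.00744) and 7.91 in replicate 2 (q = 0.176), 82 bp apart.

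The summits of col-74 (pooled signal 24.7) and col-8 (23.4) had a counterpart in replicate 1, with q of 0.0256 and 0.0337, and none in replicate 2. The col-8 summit, 937 bp upstream, was nearer to rfl-1, which encodes a subunit of the enzyme that activates the ubiquitin-like protein NEDD8, at 331 bp. For col-19, an adult-stage collagen used as a marker of the larva-to-adult switch, the pooled summit lay 85 bp upstream (signal 23.2, rank 4255, q = 0.356). Replicate 1 had a summit 86 bp upstream (signal 18.5) and replicate 2 only a weak one 578 bp upstream (signal 4.32). The pooled signal was 22.6 at col-166 and 21.4 at col-179, 32 bp upstream and 18 bp downstream of the start, with a summit in both replicates and q of 0.395 and 0.470. In all, 9 collagen genes (5.29%) had a promoter summit with q under 0.05 in some weak list, against 14.4% of all genes, and 7 (4.12%) had one in 1 list only, against 6.47%. The remaining pair not yet named, col-183 and col-184, are divergent neighbours that share a replicate 2 summit (rank 2015, signal 11.4, q = 0.0206) and had none in the pooled list or replicate 1.

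**Figure D2:**
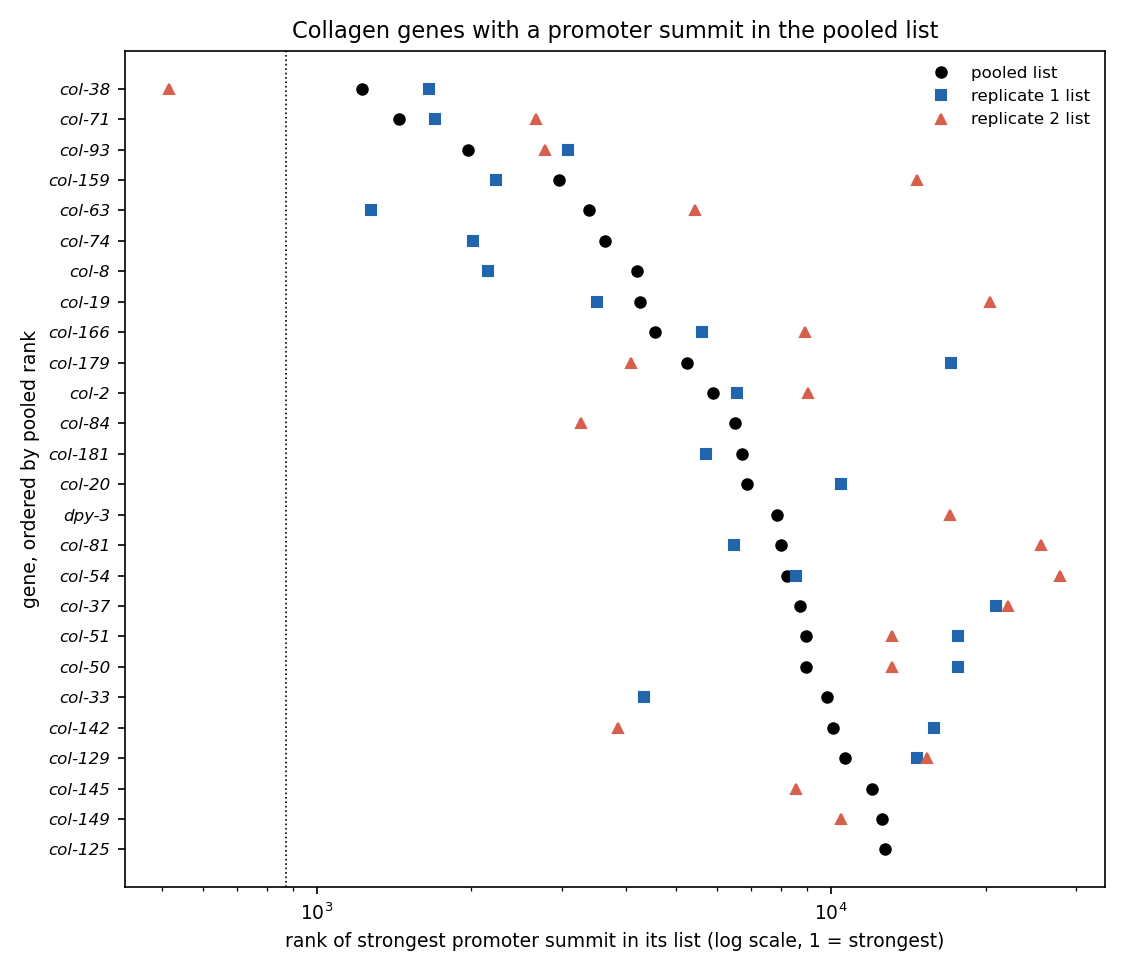
Rank of the strongest promoter summit (log scale, 1 is the strongest peak of the list) for the 26 cuticle collagen genes with a summit in the pooled list, in the pooled list (black circles), replicate 1 (blue squares) and replicate 2 (red triangles). The strongest summits of a gene in different lists can lie at different places in its promoter. A missing symbol means that no summit lay in the promoter, and the dotted line marks the size of the optimal list; the col-38 summit of replicate 2, at rank 517, is the only symbol left of it.

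The sequence at some of these summits is given with that of a strong peak for contrast. Each run is 151 bases of the reference genome (RefSeq, build WBcel235, the same as ce11) centred on the summit, 5′ to 3′ on the strand of the gene. Capitals mark the SKN-1 core, ATCAT or GTCAT, and the GATA word TGATAA, searched on both strands. The col-71 (chrII:3502748-3502898, minus strand) and col-93 (chrIII:10986075-10986225, minus) summits are the strongest of the pooled list at collagen genes after that of col-38, whose window overlaps an annotated exon and is not shown. The col-19 summit (chrX:421547-421697, plus) is weaker and is shown for the gene's use as a stage marker. The summit of col-181 (chrX:12104677-12104827, plus) was added after the words were counted, since its core belongs to the only longer SKN-1 word found at a pooled collagen summit. The contrast is gst-4 (chrIV:10142067-10142217, plus), a glutathione S-transferase gene and a common reporter of SKN-1 activity, whose optimal peak had a signal of 115.
col-71: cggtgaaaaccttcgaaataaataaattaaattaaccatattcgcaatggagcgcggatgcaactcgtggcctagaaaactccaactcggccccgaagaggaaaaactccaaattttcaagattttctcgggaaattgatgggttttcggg
col-93: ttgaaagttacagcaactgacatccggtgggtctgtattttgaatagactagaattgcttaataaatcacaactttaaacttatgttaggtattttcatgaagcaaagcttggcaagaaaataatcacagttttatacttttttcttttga
col-19: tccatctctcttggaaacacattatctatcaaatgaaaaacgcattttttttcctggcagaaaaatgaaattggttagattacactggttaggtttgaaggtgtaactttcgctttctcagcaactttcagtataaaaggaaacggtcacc
col-181: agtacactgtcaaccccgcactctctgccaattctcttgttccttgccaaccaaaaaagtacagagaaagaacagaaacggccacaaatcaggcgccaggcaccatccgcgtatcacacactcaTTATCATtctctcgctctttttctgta
gst-4: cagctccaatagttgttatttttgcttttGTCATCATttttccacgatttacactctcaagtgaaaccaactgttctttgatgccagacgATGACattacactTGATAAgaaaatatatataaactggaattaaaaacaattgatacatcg

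The gst-4 window held 3 SKN-1 cores and 1 GATA word. That of col-181 held 1 of each, which overlap, and those of col-71, col-93 and col-19 held none of either. Within 100 bp of the 26 pooled summits in collagen promoters, 12 (46.2%) had the core and 1 (3.85%) had the longer SKN-1 word, which is TATCAT or TGTCAT after a pair of bases that are each A or T. Among 5171 pooled promoter summits ranked below the optimal list the shares were 57.4% for the core and 12.6% for the longer word. Among 588 optimal promoter summits they were 67.0% and 25.9%. The GATA word was present at 11 of the 26 collagen summits (42.3%), against 31.6% of the weaker promoter summits and 34.0% of the optimal ones. The PHA-4 word, TGTTTAC or TGTTTGC, was present at 1 of 26 (3.85%), against 11.0% of the weaker promoter summits and 88 of the 588 optimal ones. The E-box CACGTG was present at 0 of 26, against 4.74% of the weaker and 5.61% of the optimal ones.

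Over whole promoters the collagen genes carried the longer SKN-1 word at a share near that of all genes, the GATA word at a higher share and the E-box and PHA-4 words at lower shares, with no test of these differences. In windows from 1000 bp before to 200 bp after the outermost start, the longer SKN-1 word was present in 86 of 170 collagen promoters (50.6%), against 48.9% of all promoters and 55.9% of promoters of genes with an optimal summit. Its density was 0.578 per kb, against 0.588 over all promoters. The core, present in nearly every promoter, had a density of 5.09 per kb, against 4.51 over all promoters and 4.81 over those of genes with an optimal summit. The GATA word, the binding sequence of factors such as ELT-1 and ELT-3 that direct epidermal genes, was present in 78.2% against 72.0%. The PHA-4 word was present in 25.3% against 33.1%, and the E-box in 12.4% against 18.4%. Mean GC content was 36.3% ± 4.07 (SD, 170 promoters) for collagen genes and 35.2% ± 3.68 (SD, 19973 promoters) for all genes. Such matches describe the sequence and are not shown to be sites.

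By role, the set held 5 furrow collagens, dpy-2, dpy-3, dpy-7, dpy-8 and dpy-10, whose loss activates stress genes. None of the 5 had a summit with q under 0.05, against 14.4% of all genes in some weak list. So few genes cannot tell a share of 0 from that one. Of the 5, 1 (20.0%) had a summit in the pooled list, against 29.2% of all genes, and 1 (20.0%) in replicate 1, against 41.0%. In replicate 2 there were 2 (40.0%), against 43.5% of all genes. At dpy-3 a pooled summit lay 4 bp upstream of the start (rank 7845, signal 18.4, q = 0.701), with none in replicate 1 and one 312 bp upstream in replicate 2 (signal 4.77, q = 0.714). At dpy-8 replicate 1 had a signal of 8.24 (q = 0.947) and replicate 2 a signal of 7.26 (q = 0.252), 102 bp upstream and 163 bp downstream of the start, and the pooled list had none. The promoters of dpy-2, dpy-7 and dpy-10 held no summit in any list.

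The other collagens named after mutants also had weak summits or none. Among dpy-5, dpy-13, dpy-17 and sqt-3, whose mutants can be short and fat, dpy-13 had summits in replicate 1 (rank 5978, q = 0.331) and replicate 2 (signal 5.53, q = 0.553), and sqt-3 had one in replicate 2 (signal 5.78, q = 0.504). Neither had one in the pooled list, and dpy-5 and dpy-17 had none at all. Among rol-6, sqt-1 and lon-3, which set the twist or length of the body, sqt-1 had a summit in replicate 2 (signal 5.76, q = 0.511) and lon-3 in replicate 1 (signal 8.90, q = 0.900), and rol-6 had none. Of the collagens of the struts, the pillars of the adult cuticle, bli-1 had a replicate 2 summit (signal 4.37, q = 0.789) and bli-2 none. Of the 14 genes, 7 thus had a summit in some weak list, a share near the 57.5% of all genes. The lowest q among them was 0.252, while 14.4% of all genes had a summit with q under 0.05 in some weak list.

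Where the weak peaks lay was compared with the genome as a whole. Collagen promoters covered 0.212 Mb, which is 0.211% of the nuclear genome and 0.804% of all promoter bases. In the pooled list they held 123 summits per Mb, against 219 over all promoters and 133 over the genome. In replicate 1 the values were 198, 344 and 247 per Mb, and in replicate 2 they were 302, 377 and 285 per Mb. Collagen promoters thus stood at 0.926, 0.803 and 1.06 times the genome density in the pooled list, replicate 1 and replicate 2, whereas promoters at large stood at 1.65, 1.39 and 1.32 times. These summits are few, 26, 42 and 64 in the collagen promoters of the 3 lists.

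Collagen promoters stood furthest below promoters at large among the strongest peaks of the pooled list and of replicate 1, and the gap did not narrow evenly with rank. Over the pooled ranks of the optimal list all promoters held 2.58 times the genome density and collagen promoters no summit. From there to rank 2000 the values were 2.27 and 1.26 times, with 3 collagen summits, and from there to rank 5000 they were 1.90 and 0.948 times, with 6. Between ranks 5000 and 10000 they were 1.47 and 1.14 times, with 12, and beyond rank 10000 they were 1.23 and 0.717 times, with 5. In replicate 2 the collagen density passed that of all promoters between ranks 10000 and 15000, with 1.42 against 1.18 times the genome density, and beyond rank 15000, with 1.18 against 1.12 times. In replicate 1 it stayed below in every class, with 1.11 against 1.82 times from rank 2000 to 5000, 0.569 against 1.40 times from there to rank 10000, and 0.873 against 1.13 times beyond rank 15000. Of the 64 collagen summits of replicate 2, 49 ranked beyond 10000. Most summits at promoters at large were that weak too. Of 9934 over all promoters, 1542 ranked between 10000 and 15000 and 3990 beyond 15000.

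**Figure D3:**
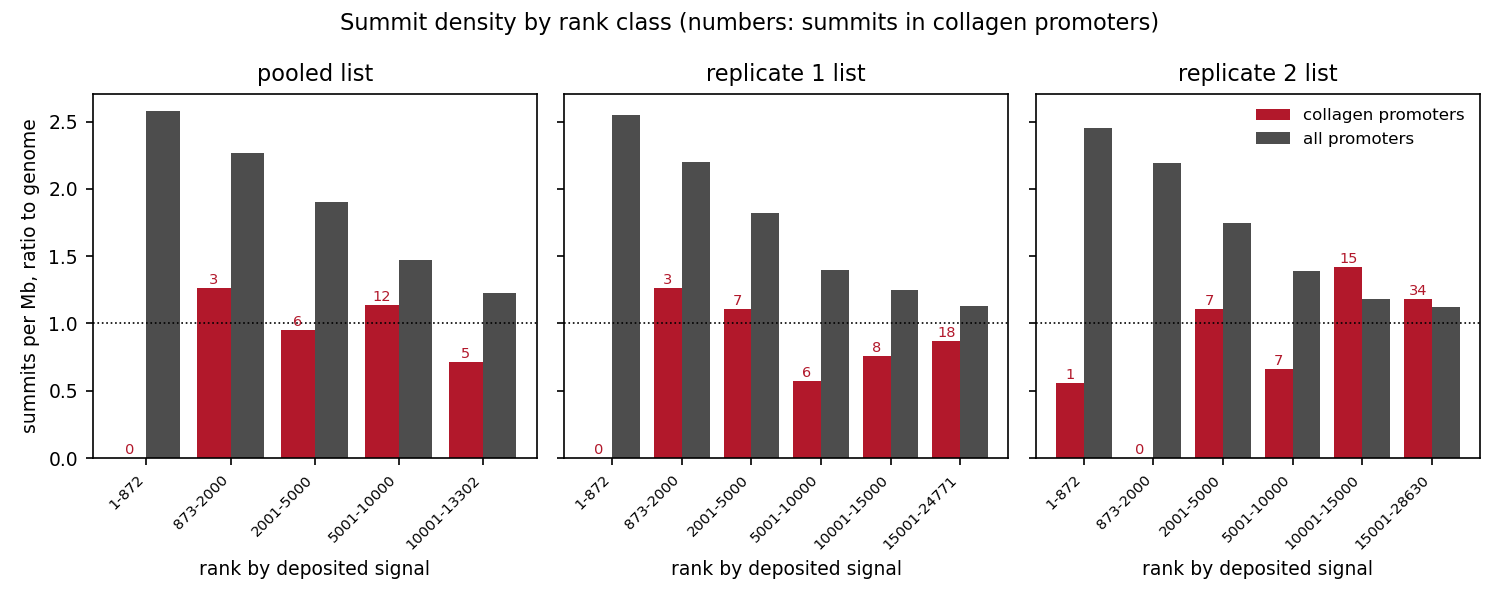
Summits per Mb as a ratio to the density over the whole nuclear genome (dotted line at 1), for collagen promoters (red) and all protein-coding promoters (grey), by class of rank in the pooled list and in each replicate's list. Numbers above the red bars are summits in collagen promoters; the red bar is below the grey one in every class except the 2 weakest of replicate 2.

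The summits that collagen genes did have ranked near the middle of their lists, lower than those of genes at large. The median rank of the strongest promoter summit was 6796 for the 26 genes in the pooled list (51.1% of the way down the list), against 4469 (33.6%) over all genes with a summit. It was at 54.3% against 32.3% in replicate 1 and at 51.3% against 31.8% in replicate 2. The median pooled signal was 19.4, with a range from 15.1 to 38.0, against a median of 22.8 over all genes with a summit.

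Summits near collagen genes also showed little concentration just upstream of the start. In the pooled list all genes had 360.0 summits per Mb in the 500 bp upstream of the outermost start and 167 in the 500 bp before that. Collagen genes had 165 and 118 per Mb. Within the first 500 bp downstream collagen genes had 23.5 per Mb, from 2 summits, against 121 for all genes. In the replicates the collagen density in the upstream 500 bp was 235 and 318 per Mb, against 489 and 515 for all genes. Of the 26 collagen genes with a pooled summit, 24 (92.3%) had it upstream of their nearest annotated start, at a median distance of 408 bp. Of all genes with one, 88.4% had it upstream, at a median of 285 bp. In 5 of the 26 the summit also lay in the promoter of a gene outside the set: rpl-5, Y49F6B.2, rfl-1, ndc-80, a kinetochore gene beside col-2, a collagen described in dauer larvae, and W03G11.3 beside col-181. For all but the last the neighbour had the nearer start.

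**Figure D4:**
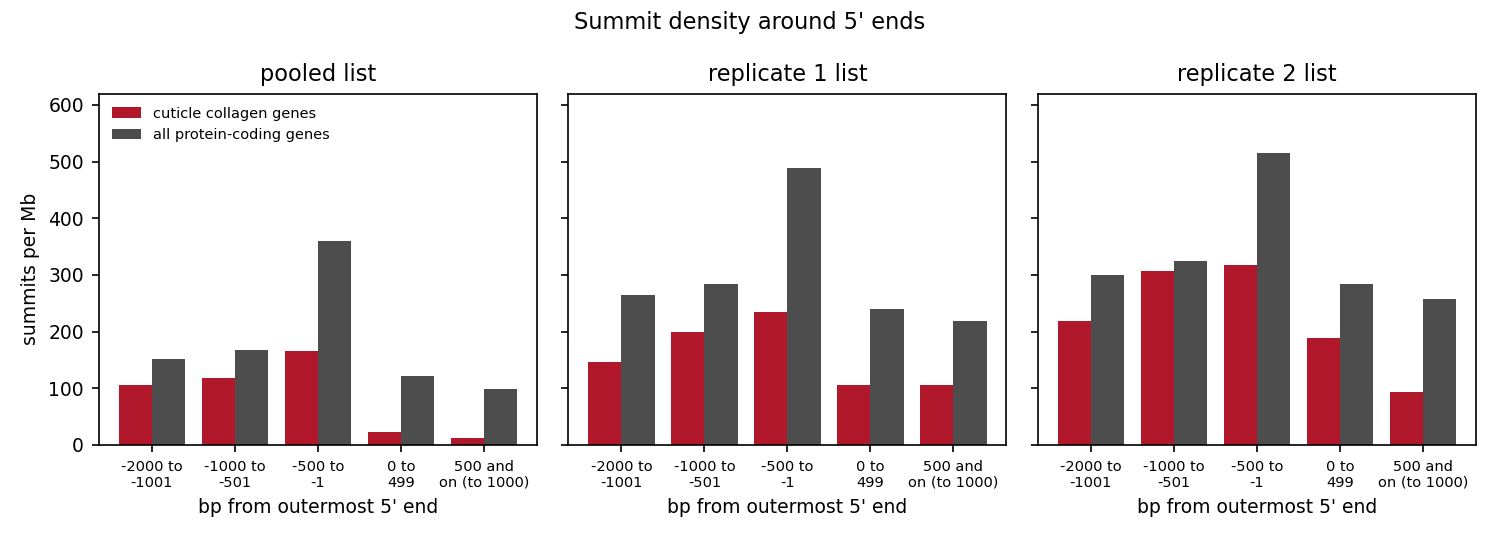
Summits per Mb in 5 windows from 2000 bp upstream to 1000 bp downstream of the outermost annotated start, for cuticle collagen genes (red) and all protein-coding genes (grey), in the pooled list and in each replicate's list. In the 500 bp upstream of the start the collagen bars stand at 165, 235 and 318 per Mb and the bars of all genes at 360.0, 489 and 515 per Mb.

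Strong peaks were not far from collagen genes in general, only outside their promoters. The median distance from a start to the nearest optimal summit was 42.7 kb for collagen genes and 42.5 kb for all genes, and 17.6% and 18.1% lay within 10 kb. Within 1 kb, however, lay 0 collagen genes against 4.08% of all genes, and within 5 kb 9 collagen genes (5.29%) against 10.8%. The closest were at col-76 and dpy-13, 1497 and 1499 bp downstream of the start, with optimal signals of 66.0 and 44.2 and in no promoter. An optimal summit lay 1891 bp upstream of col-94 (signal 60.1), also in no promoter. At col-120 one lay 1922 bp downstream of the start (signal 76.0), in the promoter of Y11D7A.10.

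Collagen genes lay on all 6 nuclear chromosomes and the pooled share was below that of all genes on each. It was lowest on IV, where 4 of 42 collagen genes (9.52%) had a pooled summit against 28.3% of all genes, and highest on II, with 6 of 30 (20.0%) against 27.6%. On I, III, V and X it was 18.2%, 15.4%, 15.2% and 16.7%, against 32.2%, 37.5%, 24.1% and 30.3%.

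Properties of the genes that bear on the counting were measured too. Of the collagen genes 87.1% had 1 annotated start, against 72.6% of all genes, so that their windows offered less room for a summit. Among genes with 1 start only, the ratio of shares was 0.604 in the pooled list, 0.629 in replicate 1 and 0.823 in replicate 2. Collagen genes belong to a large family with similar copies, and reads that fit several places can be lost. The share of 31-base words that occur at a single place in the genome was 95% or more in 134 of 170 collagen promoters (78.8%) and in 79.7% of all promoters. Among those genes the optimal count was again 0 of 134, against 702 of 15913 over all genes of that kind. The ratio of shares was 0.526 in the pooled list, 0.545 in replicate 1 and 0.689 in replicate 2. The lowest value was 46.6%, at col-3 and col-117, whose counts are the least certain.

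Other genes of the cuticle pathway were counted in the same way. Of 16 genes for the modification, secretion and cross-linking of collagen, 0 had an optimal summit and 6 (37.5%) a pooled one, against 3.89% and 29.2% of all genes. The strongest of these was at pdi-2, the disulfide isomerase subunit of prolyl 4-hydroxylase, with a pooled signal of 22.9 (q = 0.378). None lay at dpy-18 or phy-2, which encode catalytic subunits of that enzyme. Of 7 collagen genes outside the set, among them dpy-4, dpy-9 and the basement membrane collagens emb-9 and let-2, 0 had an optimal summit and 1, let-2, a pooled one (signal 15.8, q = 0.904).

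Of 15 regulators of the cuticle and moulting, 1 (6.67%) had an optimal summit and 10 (66.7%) a pooled one, against 3.89% and 29.2% of all genes. Genes with more annotated starts offer more room for a summit, and the starts of these regulators are not given here. The optimal peak, with a signal of 47.0, spanned chromosome III 8748668 to 8749007, upstream of sma-2, a Smad of the BMP-like pathway that sets body size and acts on collagen genes. Its signal was 33.2 in replicate 1 and 17.3 in replicate 2, and it lay in the promoter of ugtp-1 too. Next among these regulators in the pooled list was blmp-1, a zinc finger factor of moulting, named here after its value was seen. Its pooled summit was at rank 1324 (q = 0.0132). The signal was 31.5 in replicate 1 (rank 836, q = 0.00299) and 6.98 in replicate 2 (rank 7480, q = 0.297).

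Genes that respond to furrow damage were examined last. The gst-4 peak described above spanned chromosome IV 10141972 to 10142311, had signals of 83.3 in replicate 1 and 28.6 in replicate 2, and was shared with the promoters of dhs-12 and gst-2. The osmolyte genes gpdh-1 and hmit-1.1 had summits in the replicates only, with a signal of 10.2 and 13.2 in replicate 1 and 4.61 and 4.46 in replicate 2, all with q of 0.501 or more. Of the antimicrobial peptide genes, nlp-29 had no summit in any list and nlp-31 a replicate 2 summit at q = 0.935. Large families differed among themselves, where the shares of all genes were 3.89% for an optimal summit and 29.2% for a pooled one. C-type lectin genes of the clec family had 6 of 240 with an optimal summit (2.50%) and 19.2% with a pooled one, and nuclear hormone receptor genes had 10 of 269 (3.72%) and 37.9%. Proteasome genes, named pas, pbs, rpt or rpn, had 29 of 33 (87.9%) and 90.9%. The clec share was 28.3% in replicate 1 and 28.8% in replicate 2. Collagen genes had 22.9% and 34.1% there, and all genes 41.0% and 43.5%.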

How the data were processed

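Peak lists of 2 ChIP-seq replicates were used in build ce11. Per the readmes deposited with them, each weak list derives from its own alignments and 1 further file, taken to be the control, and the optimal list derives from the weak ones. No aligner, caller, filter or cutoff is given in the sources used here. The authors' signal per peak and the deposited −log10 q were used within a list only. The ce10 lists were not used. Read depth is unknown, which limits how firmly an absent peak can be read.

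Genes came from Ensembl release 115 (WBcel235). A summit counted for every gene whose window held it. Shares, densities, ranks and words were computed with Python 3.11 and numpy 2.4.6, and the assignment of summits was tested on planted positions. Figures used matplotlib 3.10.9. No p-values were computed.

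The topic of cuticle collagens and the pathway lists were chosen with earlier results of these data known, although the rule for members uses names only. Genes named were the 14 collagen genes not called col, the 10 col genes with the strongest pooled summit, collagen genes at the strongest peaks of a list, as many as the optimal list holds, pathway genes with an optimal summit, and the furrow damage genes. Others were named after their values were seen. Alternatives were other windows, assignments, thresholds and gene subsets.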

Additional observations from a re-analysis of the deposited data

How the results depend on the processing

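The ratio of the collagen share to that of all genes was below 1 under all 27 alternatives tried on the 3 weak lists, with a range from 0 to 0.834. It moved by more than 1.5 times with q under 0.05, to 0.153 in the pooled list and 0.280 in replicate 2, and with only as many peaks as the optimal list holds, to 0 in the pooled list and in replicate 1 and 0.162 in replicate 2. The count of 0 in the optimal list became 1 of 170 with a window of 2000 bp upstream, against 1023 of all 19973 genes. The optimal list was not remade without a replicate. In its place stood the strongest peaks of a single replicate, with the counts given above, 0 in replicate 1 and 1 in replicate 2. The share of collagen promoters with the longer SKN-1 word was 31.2% with a window of 500 bp upstream to 100 bp downstream and 98.8% with the core alone, against 29.4% and 98.9% of all promoters. By construction a shorter window holds fewer words and a shorter word matches more often. The subsets with 1 start and with 95% unique words were chosen after seeing the data. No paired analysis was possible because there is only 1 group. Unknown depth, few collagen summits and 2 replicates limit the precision, and a promoter without a peak is not shown to be unbound.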
